A study of Mus musculus with 6 samples.

Results

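The genes described here encode the cyclin-dependent kinase (CDK) inhibitors and the D-type cyclins, 10 of the 41128 features in each deposited table. The rule that picks them uses gene symbols and no measured value, although it was set with earlier results of these data known. There are 7 inhibitors, namely Cdkn1a, Cdkn1b and Cdkn1c of the CIP/KIP family and Cdkn2a, Cdkn2b, Cdkn2c and Cdkn2d of the INK4 family, and 3 D cyclins, Ccnd1, Ccnd2 and Ccnd3. RNA was sequenced from mouse lenses at the embryonic stage E13.5. The Prox1 conditional knockout (Prox1 cKO) lenses carried floxed Prox1 alleles and the MLR10Cre transgene (Prox1 f/f MLR10Cre+), and the comparison lenses were wild type. Both groups have the strain C57Bl/6 in the labels and 3 libraries each, and every library came from a pool of 30 lenses. MLR10-Cre acts in lens cells, and no library with Cre alone or floxed alleles alone was among the samples, so an effect of either cannot be told apart from the loss of Prox1.

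D cyclins bind Cdk4 or Cdk6, and these kinases phosphorylate the retinoblastoma protein Rb and its relatives, which releases E2F factors and lets a cell enter S phase. INK4 proteins bind Cdk4 and Cdk6 and keep the D cyclins off, whereas CIP/KIP proteins bind complexes of a cyclin with its kinase and block above all those of Cdk2. In the lens, epithelial cells at the front divide, and cells at the equator leave the cell cycle and elongate into fibres, with p57 (the product of Cdkn1c) and p27 (that of Cdkn1b) as the inhibitors best known for that exit. Prox1 is a homeodomain transcription factor of early fibre cells.

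Cdkn1c, by far the most abundant inhibitor transcript in both groups, fell 2.26-fold in the Prox1 cKO lenses and was the only 1 of the 10 genes to pass the test. None rose. The other 9 did not pass. For 3 of these, Cdkn2d, Ccnd2 and Ccnd3, all Prox1 cKO libraries lay below all wild type libraries. Groups did not overlap for 50.1% of all tested genes either. Scaled by library totals alone, the log2 fold changes of Cdkn2d, Ccnd2 and Ccnd3 were 0.04, -0.01 and 0.08. That of Cdkn1c was -0.81, against -1.18 in the main fit. The summed levels of the D cyclins overlapped between the groups, and the ratio of D cyclin to CDK inhibitor transcripts was higher in every Prox1 cKO library than in every wild type library.

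Among all 14271 genes tested with edgeR, 4659 passed an adjusted p of 0.05, which is 32.6%, of which 2263 (15.9%) were higher and 2396 (16.8%) lower in the Prox1 cKO lenses. Read against that background, 1 of 10 genes is a smaller share than among all genes. Without wild type replicate 1, 4 of the 10 passed, beside 5317 of all genes (36.4%). Without wild type replicate 3, 3 of the 10 passed, beside 2475 (17%), and without wild type replicate 2, 1 of the 10, beside 2267 (15.5%). With DESeq2, 3 of the 10 passed, beside 4830 (33.8%). All members called in these fits were lower. The groups did not overlap for 4 of the 10, against 50.1% of all tested genes, and 4 of the 10 had an unadjusted p under 0.05, against 45.3%. The median log2 fold change of the 10 genes was -0.33, beside 0.04 for all genes tested. Fold changes are Prox1 cKO over wild type, and levels are library-scaled counts in the unit CPM, with TMM factors applied, unless a sentence says otherwise. When libraries were scaled by their totals alone, the median of all genes moved to 0.39 and the split of calls to 5423 higher and 945 lower, so small changes here are relative to the scaling.

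The libraries held 28391662, 10907877 and 9082219 counts in Prox1 cKO and 21061582, 20731491 and 20812141 in wild type. Prox1 itself had 651, 728 and 707 CPM in the Prox1 cKO libraries, against 922, 1215 and 1246 CPM in the wild type libraries, a log2 fold change of -0.70 (SE 0.14) with an adjusted p of 0.0074, so that transcripts counted for Prox1 were lower but still abundant in the knockout. The tissue label was borne out by the lens fibre markers, which summed to 19603 to 22653 CPM in Prox1 cKO and 96932 to 183747 CPM in wild type, and all 12 of them were lower. The 9 lens epithelium markers summed to 5382 to 5892 CPM in Prox1 cKO and 6609 to 7548 CPM in wild type, with 4 higher and 3 lower. Markers of other cell types were present as well. Among all genes tested, 15.9% were higher and 16.8% lower. The neural retina list summed to 924 to 1164 CPM in Prox1 cKO and 508 to 707 CPM in wild type, with 4 of 9 higher and none lower. Of the pigment cell markers all 6 tested were higher, and of the periocular mesenchyme markers 3 of 7 tested. The pigment cell list summed to 248 to 701 CPM in Prox1 cKO and 52.2 to 164 CPM in wild type, and the periocular mesenchyme list to 748 to 3422 CPM in Prox1 cKO against 289.8 to 595 CPM in wild type. Surface ectoderm markers summed to 27.1 to 113 CPM in Prox1 cKO and 17.7 to 26.9 CPM in wild type, with 5 of 6 higher, and neuron markers overlapped, with 99.6 to 135 CPM in Prox1 cKO and 97.6 to 149.8 CPM in wild type. In whole lenses, fewer cells of a type and less RNA per cell cannot be told apart, and the part of these cells in the results below was not tested.

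**Figure D1:**
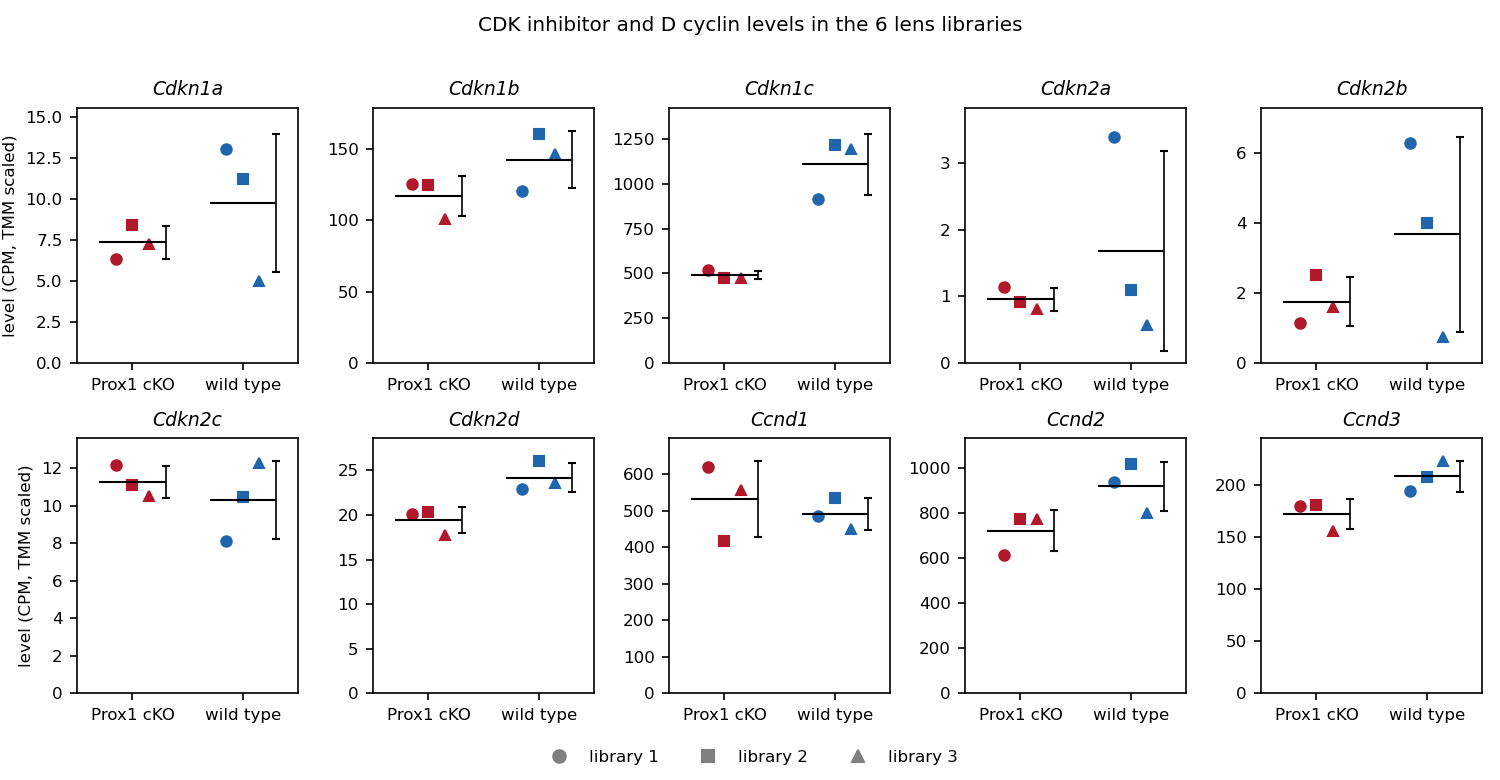
Level of each of the 10 genes in each library, 1 panel per gene, on a linear axis of TMM-scaled CPM that starts at 0; points are libraries (Prox1 cKO left, wild type right, 1 shape per replicate number), horizontal lines are group means and error bars 1 SD. Only in the panels of Cdkn1c, Cdkn2d, Ccnd2 and Ccnd3 do all Prox1 cKO points lie below all wild type points, and the gap is widest for Cdkn1c (517 CPM at most in Prox1 cKO, 914 CPM at least in wild type).

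Cdkn1c encodes p57, an inhibitor of the CIP/KIP family that is expressed from the maternal allele. It lies on chromosome 7 at 143458339 to 143461050, minus strand (GRCm38, ENSMUSG00000037664). Its level was 517, 476 and 477 CPM in the Prox1 cKO libraries, against 914, 1216 and 1194 CPM in the wild type libraries. At these TMM-scaled levels the Prox1 cKO libraries were close to each other and the wild type libraries were spread more widely. By the deposited RPKM, which has no TMM factor, that contrast in spread was not seen. Cdkn1c had 321, 271 and 269 RPKM in Prox1 cKO, against 465, 531 and 516 in wild type, with SDs of 29.3 and 34.4. The groups did not overlap by either measure. Group means were 489.8 ± 23.6 CPM in Prox1 cKO and 1108 ± 169 CPM in wild type (SD, n = 3 each). The log2 fold change was -1.18 (SE 0.14), with a 95% interval from -1.49 to -0.86 and an adjusted p of 0.000595. Leaving out each library in turn gave log2 fold changes from -1.34 to -1.14 and adjusted p from 0.000136 to 0.00467. Scaled by library totals alone, the log2 fold change was smaller, -0.81 with an adjusted p of 0.00136. Of the exon bases of Cdkn1c, 30.7% lie opposite the antisense gene Gm44732, and reads of the pair cannot be separated in a library without strand. Wild type replicate 1 had the lowest Cdkn1c of its group and also the lowest fibre marker sum, 96932 CPM against 172316 and 183747 CPM in replicates 2 and 3. Its TMM factor was 0.984, against 0.843 and 0.835 in replicates 2 and 3, and a lower factor raises every scaled level of a library. The part of this scaling in the order was not tested.

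Cdkn1b encodes p27, which blocks Cdk2 with cyclin E or A. The gene spans 134920401 to 134925513 of chromosome 6, plus strand (ENSMUSG00000003031). Its promoter is printed because Cdkn1b was the second inhibitor by level, with the promoter window taken as the 250 bases before the RefSeq start of transcription (GRCm38.p6), 5′ to 3′ on the strand of the gene, with matches to the GC box GGGCGG and to CCAAT, on either strand, in capitals.
Cdkn1b, chr6:134920151-134920400, plus strand: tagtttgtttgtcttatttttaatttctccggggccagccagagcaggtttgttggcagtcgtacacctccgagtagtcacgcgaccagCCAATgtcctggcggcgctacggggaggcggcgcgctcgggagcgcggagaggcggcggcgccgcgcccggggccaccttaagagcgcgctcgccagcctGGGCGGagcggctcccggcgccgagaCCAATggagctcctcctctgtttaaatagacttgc
The window had a GC content of 64.4% and 28 CpG dinucleotides, beside medians of 52.4% and 6 over the 32851 windows of the table. It held CCAAT at 161 and 35 bases and a GC box at 61 bases before the start.

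Cdkn1b transcripts were measured at 125, 125 and 101 CPM in the Prox1 cKO libraries, against 121, 160.1 and 146 CPM in the wild type libraries. The lowest wild type library lay below 2 of the 3 Prox1 cKO libraries, so the groups overlapped. On the log2 scale the fold change was -0.28 (SE 0.13), with an interval from -0.58 to 0.02 and an adjusted p of 0.135, and it was 0.08 when libraries were scaled by their totals alone. Without wild type replicate 1, the library with the lowest Cdkn1b of its group, the log2 fold change was -0.43 and the adjusted p 0.0308. That was the only call of the 6 fits with 1 library left out, which ran up to -0.18 and an adjusted p of 0.338. The data set no firm direction for Cdkn1b, while its interval leaves out a fall as large as the one of Cdkn1c.

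Cdkn1a encodes p21, the inhibitor best known as a target of p53. It lies on chromosome 17 at 29090976 to 29100727, plus strand (ENSMUSG00000023067). Its level was 6.38, 8.43 and 7.26 CPM in the Prox1 cKO libraries, against 13.04, 11.2 and 5.01 CPM in the wild type libraries. Wild type replicate 3 was below all Prox1 cKO libraries and the other wild type libraries were above them. The log2 fold change was -0.42 (SE 0.32), with an interval from -1.16 to 0.32 and an adjusted p of 0.34. Without wild type replicate 3 the log2 fold change was -0.76 and the adjusted p 0.0366, the only call with 1 library left out. Across the 6 such fits the log2 fold change ran from -0.76 to -0.19 and the adjusted p up to 0.674. Scaled by library totals alone, the log2 fold change was -0.09 with an adjusted p of 0.833. The opposite-strand feature AC167363.2 covers 7.68% of the exon bases of Cdkn1a.

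**Figure D2:**
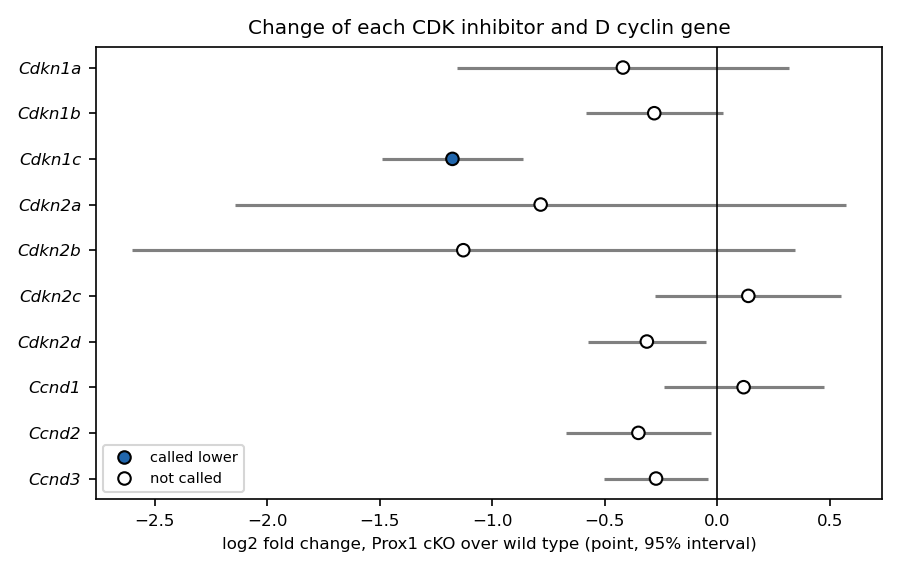
Log2 fold change of each gene, Prox1 cKO over wild type, from the edgeR fit over all 14271 genes tested; points are estimates, lines are 95% intervals, and the filled point passed an adjusted p of 0.05. The interval of Cdkn1c runs from -1.49 to -0.86, those of Cdkn2d, Ccnd2 and Ccnd3 end just below 0, and the intervals of Cdkn2a and Cdkn2b are the widest.

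The INK4 genes were far lower than Cdkn1c in both groups, and none passed the test. Cdkn2d, which encodes p19Ink4d, was the most abundant of them. It spans 21288410 to 21291407 of chromosome 9, minus strand (ENSMUSG00000096472). Its level was 20.1, 20.4 and 17.8 CPM in the Prox1 cKO libraries, against 22.9, 26.1 and 23.5 CPM in the wild type libraries. All Prox1 cKO libraries were below all wild type libraries by a narrow margin. The fitted log2 fold change was -0.31 (SE 0.11), with an interval from -0.57 to -0.05, an unadjusted p of 0.0243 and an adjusted p of 0.0652, and the log2 value was 0.04 under scaling by library totals alone. Without wild type replicate 1 the adjusted p was 0.0456, the only call of the 6 fits with 1 library left out, in which it ran up to 0.19.

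The promoter of Cdkn2d is shown for the number of its GC boxes, at 118, 106 and 38 bases before the start, with CCAAT on the other strand, read as ATTGG, at 220 bases.
Cdkn2d, chr9:21291210-21291459, minus strand: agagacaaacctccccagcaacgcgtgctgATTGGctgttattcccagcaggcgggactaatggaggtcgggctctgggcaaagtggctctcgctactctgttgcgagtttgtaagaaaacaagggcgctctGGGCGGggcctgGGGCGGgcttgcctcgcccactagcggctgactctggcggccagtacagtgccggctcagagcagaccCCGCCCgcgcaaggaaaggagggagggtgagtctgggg
Its GC content was 63.6% with 16 CpG dinucleotides. The window of the first Cdkn2c start, not printed, also held 3 GC boxes.

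Cdkn2c encodes p18Ink4c and lies on chromosome 4 at 109660876 to 109667189, minus strand (ENSMUSG00000028551). Its level was 12.2, 11.1 and 10.5 CPM in the Prox1 cKO libraries, against 8.11, 10.5 and 12.3 CPM in the wild type libraries. At these TMM-scaled levels the wild type libraries covered the whole range of the Prox1 cKO libraries. The log2 fold change was 0.14 (SE 0.18), with an interval from -0.28 to 0.55 and an adjusted p of 0.58, and it was -0.05 without wild type replicate 1. In this TMM-scaled fit, a change of more than 0.55 in either direction on the log2 scale lies outside the interval. Scaled by library totals alone, the log2 fold change of Cdkn2c was 0.51 with an adjusted p of 0.0542. By the deposited RPKM, which has no TMM factor, Prox1 cKO was higher without overlap (5.43, 4.54 and 4.26, against 2.97, 3.29 and 3.81 in wild type).

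Cdkn2a and Cdkn2b are neighbours on chromosome 4, minus strand, at 89274471 to 89294653 (ENSMUSG00000044303) and 89306299 to 89311039 (ENSMUSG00000073802). Cdkn2b encodes p15Ink4b. Cdkn2a encodes p16Ink4a and, from another first exon and reading frame, p19Arf, which stabilises p53 by binding Mdm2. The deposited count is 1 value per gene, so the Cdkn2a value does not separate the transcripts. Both promoters of Cdkn2a are printed because that single count pools them, first the upstream one of the p19Arf transcript and then the one of the p16Ink4a transcript.
Cdkn2a upstream start, chr4:89294620-89294869, minus strand: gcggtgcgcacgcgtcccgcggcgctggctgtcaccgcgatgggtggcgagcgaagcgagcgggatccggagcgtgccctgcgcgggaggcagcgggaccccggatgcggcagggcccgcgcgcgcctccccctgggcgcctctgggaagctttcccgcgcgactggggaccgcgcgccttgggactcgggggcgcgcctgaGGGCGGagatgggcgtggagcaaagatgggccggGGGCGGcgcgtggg
Cdkn2a downstream start, chr4:89282193-89282442, minus strand: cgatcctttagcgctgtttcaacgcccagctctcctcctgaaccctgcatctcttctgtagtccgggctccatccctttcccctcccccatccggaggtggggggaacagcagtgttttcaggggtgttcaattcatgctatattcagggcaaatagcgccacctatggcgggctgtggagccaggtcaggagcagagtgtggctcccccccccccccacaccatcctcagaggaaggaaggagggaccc
They differ in base composition. The upstream window had 78.4% GC, 40 CpG dinucleotides and GC boxes at 48 and 14 bases before the start, and the downstream window had 60% GC, 7 CpG dinucleotides and no match to any motif searched.

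Cdkn2a had 39, 11 and 8 counts in the Prox1 cKO libraries, against 70, 19 and 10 counts in the wild type libraries, which is 1.15, 0.918 and 0.807 CPM in the Prox1 cKO libraries, against 3.38, 1.09 and 0.576 CPM in the wild type libraries. Wild type replicate 1 stood above the other 5 libraries. Fitted over all genes, the log2 fold change was -0.79 (SE 0.60), with an interval from -2.14 to 0.57 and an adjusted p of 0.333, and it was 0.20 without that library. Neither a fall as large as the one of Cdkn1c nor no change lies outside the interval.

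Cdkn2b had 1.15, 2.505 and 1.61 CPM in the Prox1 cKO libraries, against 6.28, 4.01 and 0.748 CPM in the wild type libraries. The highest and the lowest library of the 6 were both wild type. The log2 fold change was -1.13 (SE 0.65), with an interval from -2.60 to 0.34 and an adjusted p of 0.205. Without wild type replicate 3 it was -1.62 with an adjusted p of 0.026. That was the only call of the 6 fits with 1 library left out, which ran up to -0.53 and an adjusted p of 0.553. Cdkn1a, Cdkn2a and Cdkn2b shared the order of the wild type libraries, highest in replicate 1 and lowest in replicate 3. The erythroid markers summed to 1402, 2237 and 1924 CPM in Prox1 cKO replicates 1, 2 and 3, an order that Cdkn2a did not share. In wild type replicates 1, 2 and 3 they summed to 2591, 1439 and 777 CPM, mostly Hbb-y with 1830, 937 and 385 CPM. The endothelium markers followed with 343 to 456 CPM in Prox1 cKO and 395, 292 and 217 CPM in the same wild type replicates, and the macrophage markers with 57.7 to 82.0 CPM in Prox1 cKO and 67.2, 44.2 and 29.2 CPM. Of the markers in these lists, all but Hba-a1, Hbb-bs and Tek fell in order from wild type replicate 1 to replicate 3. The part of those cells in the 3 genes was not tested.

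Of the D cyclins, none passed the test. Ccnd1 lies on chromosome 7 at 144929931 to 144939925, minus strand (ENSMUSG00000070348), 1469 kb from Cdkn1c. Its level was 621, 417 and 557 CPM in the Prox1 cKO libraries, against 486, 536 and 449 CPM in the wild type libraries. The Prox1 cKO libraries held both the highest and the lowest value of the 6. In the edgeR fit the log2 fold change was 0.12 (SE 0.16), with an interval from -0.24 to 0.47 and an adjusted p of 0.586, and it was -0.01 without Prox1 cKO replicate 1. In this TMM-scaled fit, a change of more than 0.47 in either direction lies outside the interval. Scaled by library totals alone, the log2 fold change of Ccnd1 was itself 0.47, with an adjusted p of 0.0516. Opposite Ccnd1, the gene Oraov1 (LTO1 in the annotation) covers 23.4% of its exon bases, and Oraov1 was counted at 21.6 ± 1.499 CPM in Prox1 cKO and 23.3 ± 2.35 CPM in wild type.

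Ccnd2 lies on chromosome 6 at 127125162 to 127152193, minus strand (ENSMUSG00000000184). Its level was 615, 772 and 773 CPM in the Prox1 cKO libraries, against 939, 1014 and 801 CPM in the wild type libraries. The highest Prox1 cKO library lay just below the lowest wild type library, replicate 3. The log2 fold change was -0.35 (SE 0.14), with an interval from -0.67 to -0.03, an unadjusted p of 0.0355 and an adjusted p of 0.0857. The DESeq2 test gave -0.36 with an adjusted p of 0.034, and scaling by library totals alone gave -0.01 with an adjusted p of 0.964. The lowest Ccnd2 of all libraries was in Prox1 cKO replicate 1, which had the highest Ccnd1.

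Ccnd3 lies on chromosome 17 at 47505051 to 47599691, plus strand (ENSMUSG00000034165). Its level was 180.2, 182 and 156 CPM in the Prox1 cKO libraries, against 194, 208 and 224 CPM in the wild type libraries. Again the groups did not overlap, and the spread within each was small. The estimate on the log2 scale was -0.27 (SE 0.10), with an interval from -0.51 to -0.04, an unadjusted p of 0.0269 and an adjusted p of 0.0703. It was called at 0.0497 by DESeq2 and at 0.0362 without wild type replicate 1, and its log2 value was 0.08 under scaling by library totals alone. The adjusted p ran up to 0.204 over the 6 fits with 1 library left out, with no other call. The neighbour Bysl on the opposite strand shares 4.11% of the Ccnd3 exon bases and fell, with a log2 fold change of -0.55 (SE 0.11) and an adjusted p of 0.0063.

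Ccnd3 was the D cyclin with promoter windows in the table used, and the inner of its 2 starts is printed.
Ccnd3 inner start, chr17:47593217-47593466, plus strand: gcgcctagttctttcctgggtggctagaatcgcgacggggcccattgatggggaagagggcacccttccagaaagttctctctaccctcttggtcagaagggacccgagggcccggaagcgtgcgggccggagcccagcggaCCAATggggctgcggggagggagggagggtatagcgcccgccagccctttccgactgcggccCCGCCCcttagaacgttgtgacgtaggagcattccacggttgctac
It held CCAAT at 108 bases and a GC box on the other strand, read as CCGCCC, at 46 bases before the start, in a window of 64.8% GC. Over the 11 windows of 7 of the genes, 7 held a GC box (63.6%, against 32.74% of all windows) and 3 held CCAAT (27.3%, against 33.85%). The GC box holds only G and C, and all these windows but the second of Cdkn2c (42.8%) exceeded the median GC content of 52.4%. Cdkn1a, Cdkn2a, Cdkn2c and Ccnd3 gave 2 windows each and Cdkn1c none, so the share is no trait of the 10 genes. The E-box CACGTG (6.021% of all windows), the E2F forms TTTCGCGC (0.2557%) and TTTGGCGC (0.417%), the TATA box TATAAA (12.37%) and the Maf half-site TGCTGAC (3.811%) had no match in the 11 windows, both strands searched. The E-box reads the same on both strands, and none of the 7 motifs contains another.

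Levels were compared between genes with the deposited RPKM, which divides by gene length and applies no TMM factor. In the Prox1 cKO lenses Cdkn1c stood first with 287 ± 29.3 RPKM, followed by Ccnd1 with 157 ± 37.2, Ccnd2 with 142 ± 11.01, Ccnd3 with 31.7 ± 3.73, Cdkn1b with 29.1 ± 4.51, Cdkn2d with 17.3 ± 1.88, Cdkn2c with 4.74 ± 0.609, Cdkn1a with 3.72 ± 0.388, Cdkn2b with 1.41 ± 0.5096 and Cdkn2a with 0.928 ± 0.218 RPKM (SD, n = 3). In the wild type lenses Cdkn1c was first as well with 504 ± 34.4 RPKM, Ccnd2 came before Ccnd1 with 143 ± 23.1 against 113 ± 13.97 RPKM, and Cdkn1a came before Cdkn2c with 3.97 ± 1.96 against 3.36 ± 0.425 RPKM. The other wild type means were 29.96 ± 1.35 RPKM for Ccnd3, 27.5 ± 1.89 for Cdkn1b, 16.8 ± 1.204 for Cdkn2d, 2.43 ± 1.99 for Cdkn2b and 1.34 ± 1.31 for Cdkn2a. The ranges of Ccnd1 and Ccnd2, those of Ccnd3 and Cdkn1b and those of Cdkn2b and Cdkn2a overlapped in both groups. Compared within single libraries, Ccnd2 exceeded Ccnd1 and Cdkn2b exceeded Cdkn2a in every wild type library. Ccnd3 exceeded Cdkn1b in every Prox1 cKO library. In the other group the order of each pair differed between libraries. In wild type the range of Cdkn1a also overlapped those of Cdkn2c, Cdkn2b and Cdkn2a, and the range of Cdkn2c that of Cdkn2b. Cdkn1a nevertheless exceeded Cdkn2b and Cdkn2a in every wild type library. The order of Cdkn2c with Cdkn1a and with Cdkn2b differed between wild type libraries.

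Cdkn1c made up 83.6%, 82.0% and 84.6% of the summed RPKM of the 7 inhibitors in the Prox1 cKO libraries, against 88.6%, 90.2% and 91.4% in the wild type libraries. The shares did not overlap, and they do not depend on the scaling of a library. The share of Cdkn1b was 8.43 ± 0.79% in Prox1 cKO and 4.91 ± 0.16% in wild type, that of Cdkn2d 5.02 ± 0.29% in Prox1 cKO and 3.02 ± 0.33% in wild type, and that of Cdkn2c 1.38 ± 0.039% in Prox1 cKO and 0.60 ± 0.065% in wild type. Within the CIP/KIP family, Cdkn1c exceeded Cdkn1b by ratios of 9.73, 8.98 and 11.2 in Prox1 cKO, against 17.9, 17.9 and 19.3 in wild type. A comparison of 3 with 3 libraries cannot reach an exact two-sided permutation p below 0.1, so such values are given as a description.

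Summed over the inhibitors, the level was 683, 644 and 615 CPM in Prox1 cKO, against 1088, 1429 and 1382 CPM in wild type. Without Cdkn1c the sum was 166, 168 and 139 CPM in Prox1 cKO, against 174, 213 and 188 CPM in wild type. By the deposited CPM, which has no TMM factor, the sums without Cdkn1c overlapped, with 178 ± 24.5 in Prox1 cKO and 169 ± 11.3 in wild type. The INK4 genes alone summed to 33.4 ± 2.36 CPM in Prox1 cKO and 39.8 ± 2.38 CPM in wild type without overlap, but by the deposited CPM to 37.7 ± 4.01 in Prox1 cKO and 35.4 ± 4.52 in wild type with overlap, so their direction turned with the scaling. Cdkn2d made up 70.9 ± 0.48% of their RPKM in Prox1 cKO and 71.0 ± 6.86% in wild type. The ratio of Cdkn2c to Cdkn2d was 0.286, 0.258 and 0.280 in Prox1 cKO, against 0.167, 0.190 and 0.246 in wild type, without overlap.

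The D cyclins summed to 1416, 1371 and 1486 CPM in Prox1 cKO, against 1619, 1758 and 1474 CPM in wild type, and the groups overlapped. Their mix was nearly constant in wild type, where Ccnd1 held 39.3%, 39.8% and 39.8% of the summed RPKM. In Prox1 cKO the Ccnd1 share was 54.1%, 39.7% and 47.4%, so the library with the lowest share was close to wild type. The ratio of Ccnd1 to Ccnd2 was 1.5, 0.803 and 1.07 in Prox1 cKO, against 0.770, 0.785 and 0.834 in wild type. Set against the inhibitors, summed D cyclin RPKM amounted to 0.934, 0.911 and 1.05 times the summed inhibitor RPKM in Prox1 cKO, against 0.605, 0.503 and 0.434 times in wild type. That ratio is free of library scaling. Its numerator averaged 331 ± 29.0 RPKM in Prox1 cKO and 286 ± 37.1 RPKM in wild type, with overlap, and its denominator 344 ± 34.8 RPKM in Prox1 cKO and 559 ± 32.0 RPKM in wild type, without overlap.

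**Figure D3:**
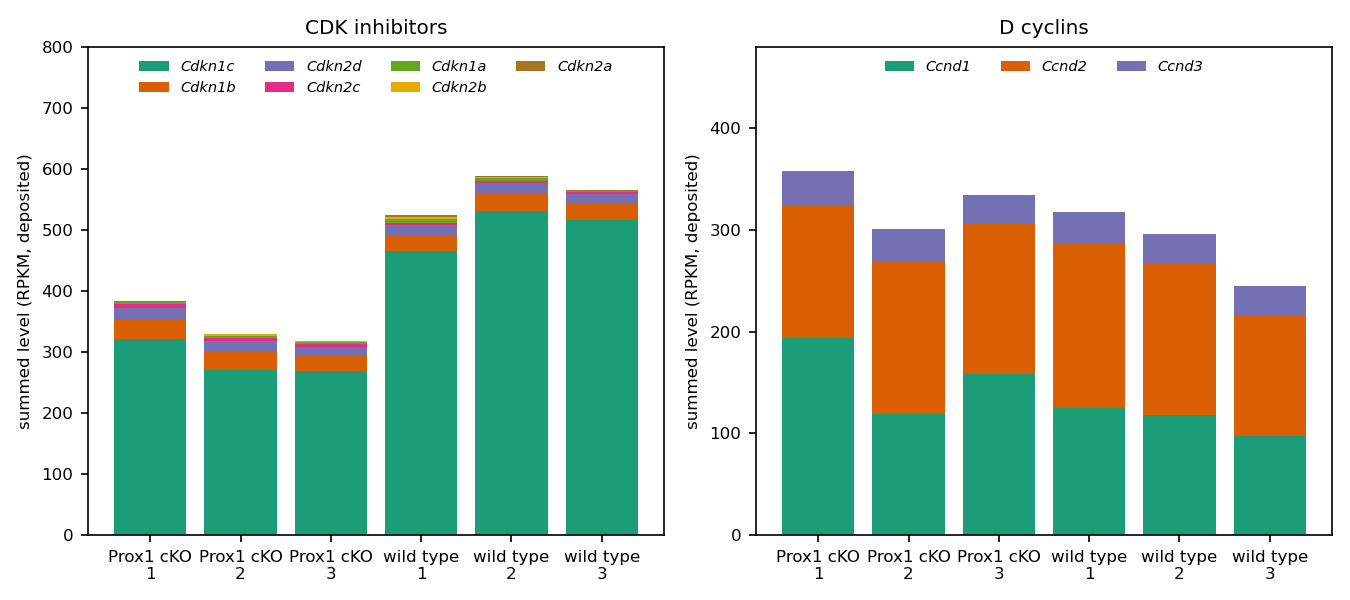
Left, summed deposited RPKM of the CDK inhibitors in each library, stacked by gene; right, the same for the D cyclins, with Prox1 cKO libraries left of wild type libraries and linear axes from 0. Cdkn1c fills 82.0% to 84.6% of the inhibitor bars in Prox1 cKO and 88.6% to 91.4% in wild type, while the D cyclin bars overlap in height between the groups.

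Genes whose pattern over the 6 libraries was most like that of Cdkn1c, by Pearson's r of log2 CPM among genes of at least 10 CPM, were Ccdc104 (r = 0.9998), Mecr (0.9995), Cog2 (0.9995), Pmpca (0.9992) and Hist1h2bc (0.9988). The libraries fall into 2 groups, so a high r mostly restates a lower level in Prox1 cKO. Ccdc104, for example, had 57.27, 52.4 and 53.3 CPM in the Prox1 cKO libraries, against 101, 132 and 128 CPM in the wild type libraries. For Ccnd2, the D cyclin of highest mean CPM, the closest were Ube3a (0.990), Kctd10 (0.987), BC027231 (0.986), Xpo4 (0.982) and 5730455P16Rik (0.981).

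The genes that act with or downstream of the D cyclins were read from the same fit. Among all genes tested, 15.9% were higher and 16.8% lower, the background for the counts in this list and the lists below. With 1 library left out, the called share of all genes ran from 15.5% to 36.4%. Of 12 G1 kinases, cyclin E genes and pocket proteins tested, 4 rose, 2 fell and 6 did not pass, with a median log2 fold change of 0.25. Cdk4, the partner of the D cyclins, averaged 501 ± 72.5 CPM in Prox1 cKO and 376 ± 32.1 CPM in wild type, a log2 fold change of 0.41 (SE 0.13) with an adjusted p of 0.0436. Cdk6, its close relative, had 5.12, 11.6 and 17.05 CPM in the Prox1 cKO libraries, against 7.63, 6.53 and 5.76 CPM in the wild type libraries, with overlapping groups and an adjusted p of 0.173. Cdk6 passed without Prox1 cKO replicate 1 (0.0114). The adjusted p of Cdk4 was 0.174 without wild type replicate 2, 0.163 without wild type replicate 3, and 0.0999 or 0.116 without Prox1 cKO replicate 1 or 2. Rb1, which encodes Rb, averaged 22.98 ± 4.77 CPM in Prox1 cKO and 32.3 ± 1.96 CPM in wild type, with -0.50 (SE 0.16) and an adjusted p of 0.0409 (0.0641 to 0.123 without any of the same 4 libraries). Its relative Rbl1, which encodes p107 and is itself an E2F target, averaged 64.8 ± 4.89 CPM in Prox1 cKO and 45.4 ± 3.39 CPM in wild type, with 0.51 (SE 0.10) and an adjusted p of 0.00638, and passed without any 1 library. Cdk2, the kinase of cyclin E, rose by 0.44 on the log2 scale (SE 0.13) with an adjusted p of 0.034, and Cdc25a, the phosphatase that activates Cdk2, by 0.48 on the log2 scale (SE 0.13) with 0.0256. Without Prox1 cKO replicate 1 or wild type replicate 2 or 3 neither of the pair passed, with adjusted p of 0.0624 to 0.142, and Cdc25a was at 0.076 without Prox1 cKO replicate 2. Mnat1, which helps assemble the kinase that activates CDKs, fell, with -0.53 (SE 0.11) and an adjusted p of 0.00787. Scaling by library totals alone ended the calls of Mnat1 (-0.17, adjusted p 0.329) and Rb1 (-0.15, 0.441) and gave Cdk6 an adjusted p of 0.0329.

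Of the 10 E2F and DP factors, 4 rose and 1 fell, and the median was 0.34. Tfdp2, a DP partner of E2F proteins, averaged 105 ± 4.39 CPM in Prox1 cKO and 62.1 ± 5.91 CPM in wild type, with 0.75 (SE 0.10) and an adjusted p of 0.001. E2f1, an activating E2F, averaged 39.5 ± 5.45 CPM in Prox1 cKO and 26.1 ± 1.97 CPM in wild type, with 0.60 (SE 0.13) and an adjusted p of 0.00878, and 0.052 without wild type replicate 2. E2f2, another activator, rose by 0.54 on the log2 scale (SE 0.15) with an adjusted p of 0.0275, and E2f8, an atypical repressor, by 0.54 on the log2 scale (SE 0.11) with 0.00691. The E2f2 call was lost, at 0.0508 to 0.112, without Prox1 cKO replicate 1 or 2 or wild type replicate 2 or 3. E2f5, which works with pocket proteins as a repressor, fell, with -0.49 (SE 0.12) and an adjusted p of 0.0172 (0.058 or 0.0572 without wild type replicate 2 or 3). Under scaling by library totals alone, 8 of the 10 were called, all higher, beside 44.6% of all genes. The call of E2f5 was lost there (-0.13, adjusted p 0.483).

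Of 6 tested cyclins of S, G2 and M phase and Cdk1, 4 rose and none fell, with a median of 0.47. These were Ccnb2 (0.56 (SE 0.13), adjusted p 0.0128), Ccnb1 (0.49 (SE 0.10), 0.00928), Ccna2 (0.44 (SE 0.10), 0.013) and Ccnf (0.37 (SE 0.12), 0.0388), and Cdk1 missed the threshold at 0.36 (SE 0.12) and an adjusted p of 0.0507. Cyclins B drive mitosis, and cyclin A2 acts in S and G2 phase. All 4 calls were lost without wild type replicate 2 and without wild type replicate 3 (0.0505 to 0.166), and that of Ccnf also without Prox1 cKO replicate 1 (0.0861) or 2 (0.122).

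Among 15 genes of the turnover of p27, p57 and the D cyclins, 1 rose and 2 fell, with a median of -0.01. Rnf123, a subunit of the ligase that degrades p27 in the cytoplasm, averaged 37.2 ± 3.25 CPM in Prox1 cKO and 119.7 ± 22.9 CPM in wild type, with -1.69 (SE 0.15) and an adjusted p of 0.000203. Cops5, a COP9 signalosome subunit that exports p27 from the nucleus, averaged 114 ± 10.1 CPM in Prox1 cKO and 226 ± 33.9 CPM in wild type, with -0.99 (SE 0.13) and 0.00111. Skp2, the F-box protein that marks p27 for degradation, rose by 0.39 on the log2 scale (SE 0.12) with an adjusted p of 0.0392, and it did not pass without Prox1 cKO replicate 1 or 2 or wild type replicate 2 or 3 (0.0887 to 0.164).

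Of 14 genes of p53 and its targets other than Cdkn1a, 4 rose and 3 fell, with a median of 0.06, and so did not move one way. Trp53, which encodes p53, was among those that rose, with 0.41 (SE 0.12) and an adjusted p of 0.0372. Its call was not followed with single libraries left out. Aen (-1.14 (SE 0.11), adjusted p 0.00028), a nuclease induced by p53, and Ccng1, which averaged 65.6 ± 5.797 CPM in Prox1 cKO and 131 ± 21.1 CPM in wild type with -1.0 (SE 0.13) and 0.00118, fell. Sesn1, a sestrin, fell as well with -0.51 (SE 0.15) and 0.0316, but did not pass with library totals alone (-0.15, adjusted p 0.422). Plk2 rose by 0.70 on the log2 scale (SE 0.23) with an adjusted p of 0.0469, and Btg2, an antiproliferative gene, by 0.56 on the log2 scale (SE 0.12) with 0.0102, while Gtse1 rose by 0.44 on the log2 scale (SE 0.14) with 0.0449. The calls of Sesn1, Plk2 and Gtse1 were lost without Prox1 cKO replicate 1 or 2 or wild type replicate 2 or 3, those of Plk2 and Gtse1 also without Prox1 cKO replicate 3 (0.0558 to 0.171 in all), and that of Btg2 without wild type replicate 3 (0.0577). With 1 library left out, between 2 and 7 of the 14 were called, beside 15.5% to 36.4% of all genes.

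Of 27 regulators of CDK inhibitor and D cyclin genes, 9 rose and 4 fell, with a median of 0.15. Mycn averaged 110.4 ± 14.5 CPM in Prox1 cKO and 188 ± 12.99 CPM in wild type, with -0.77 (SE 0.12) and an adjusted p of 0.00209, and Myc averaged 20.2 ± 1.13 CPM in Prox1 cKO and 31.1 ± 3.78 CPM in wild type, with -0.62 (SE 0.12) and 0.00653, both being factors that promote growth and D cyclin transcription. Under scaling by library totals alone the Myc call was lost, with a log2 fold change of -0.28 and an adjusted p of 0.207. Mxd1, which competes with Myc for Max, fell too, with -0.74 (SE 0.17) and an adjusted p of 0.0127, which was 0.0504 without wild type replicate 2 and 0.0797 with library totals alone. Hes1, a Notch target that represses CDK inhibitor genes, rose by 0.76 on the log2 scale (SE 0.14) with an adjusted p of 0.00484. Foxo4, a forkhead factor that can raise Cdkn1b transcription, rose by 0.75 on the log2 scale (SE 0.09) with 0.000875, and Tcf7l2, a Wnt effector that acts on Ccnd1, by 0.63 on the log2 scale (SE 0.12) with 0.00671. Between 5 and 13 of the 27 were called with 1 library left out, beside 15.5% to 36.4% of all genes.

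**Figure D4:**
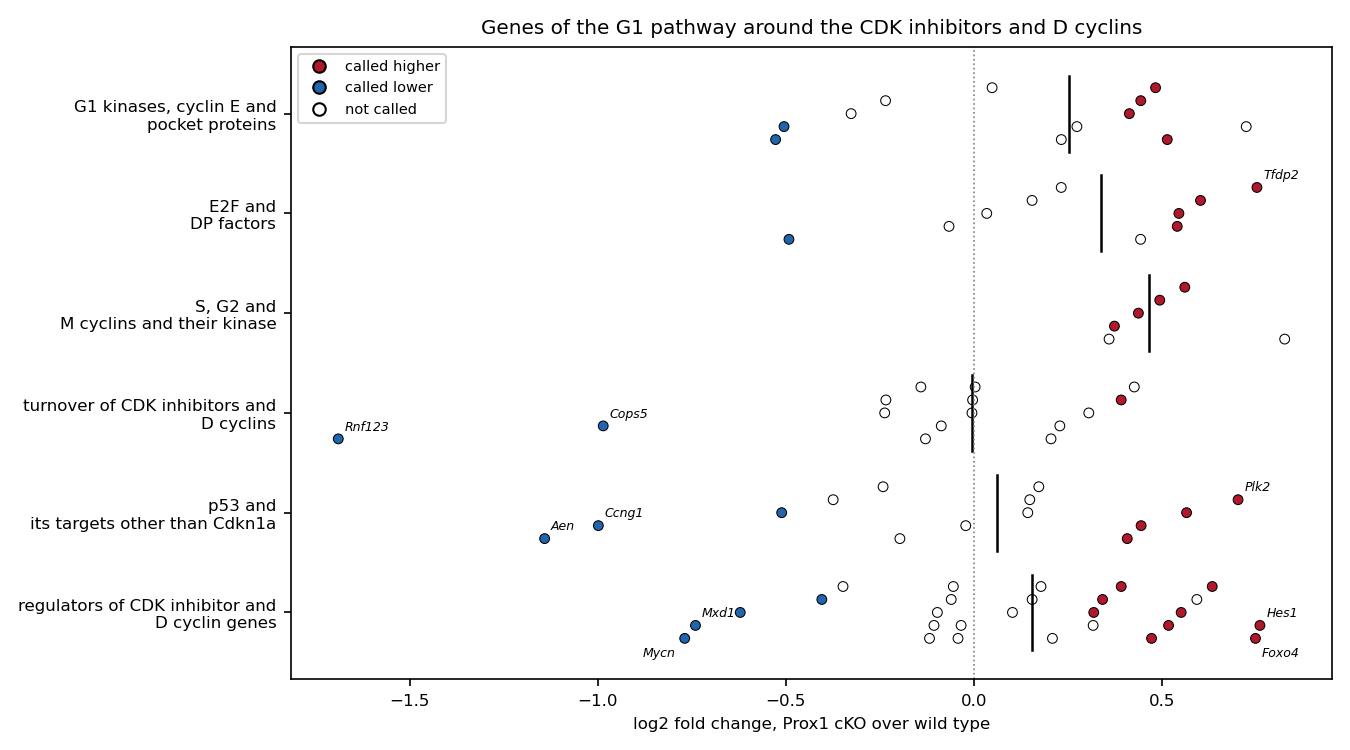
Log2 fold change, Prox1 cKO over wild type, of each tested gene of the pathway lists, 1 row of points per list, with filled points for genes that passed an adjusted p of 0.05, names for such genes beyond 0.7 in either direction, and a black line at each list's median. The cyclins of S, G2 and M phase lie on the positive side with a median of 0.47, and Rnf123 at -1.69 is the lowest point of the turnover list.

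Cdkn1c lies in an imprinted domain of distal chromosome 7, in which the noncoding RNA Kcnq1ot1, made from the paternal allele, silences neighbouring genes. Of 13 genes listed for the domain and its flanks, 9 could be tested. Of these, 2 rose, 3 fell and 4 did not pass, with a median of 0.05, beside 32.6% of all genes called. Nap1l4, a histone chaperone gene 52.5 kb from Cdkn1c, had 456, 522 and 456 CPM in the Prox1 cKO libraries, against 1311, 1955 and 1848 CPM in the wild type libraries. The groups were far apart, with -1.83 (SE 0.17) and an adjusted p of 0.000215. Cars, the cysteinyl-tRNA synthetase gene 96.2 kb away, averaged 55.8 ± 6.36 CPM in Prox1 cKO and 172 ± 43.1 CPM in wild type, with -1.62 (SE 0.19) and 0.000581. Tnfrsf23, a decoy receptor gene 204.8 kb away, averaged 3.82 ± 0.793 CPM in Prox1 cKO and 16.6 ± 4.13 CPM in wild type, with -2.15 (SE 0.24) and 0.000527.

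All 3 of these genes lie on the same side of Cdkn1c, and all 3 passed the test with any 1 library left out. Farther out on that side, at 227.7 kb, Osbpl5 rose by 0.37 on the log2 scale (SE 0.11) with an adjusted p of 0.0346, and on the opposite side Cd81, a tetraspanin gene at 390.4 kb, rose by 0.35 on the log2 scale (SE 0.09) with 0.022. The Osbpl5 call was lost without any 1 library but wild type replicate 3 (0.0519 to 0.179), and that of Cd81 without wild type replicate 2 (0.115) or 3 (0.116). Kcnq1, the potassium channel gene whose intron holds the start of Kcnq1ot1, had overlapping groups and an adjusted p of 0.55. Kcnq1ot1 is listed at 0 in all 6 libraries. Phlda2 and Slc22a18, which lie between Cdkn1c and Nap1l4, and Ascl2 had too few counts to be tested. Allelic expression was not measured.

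**Figure D5:**
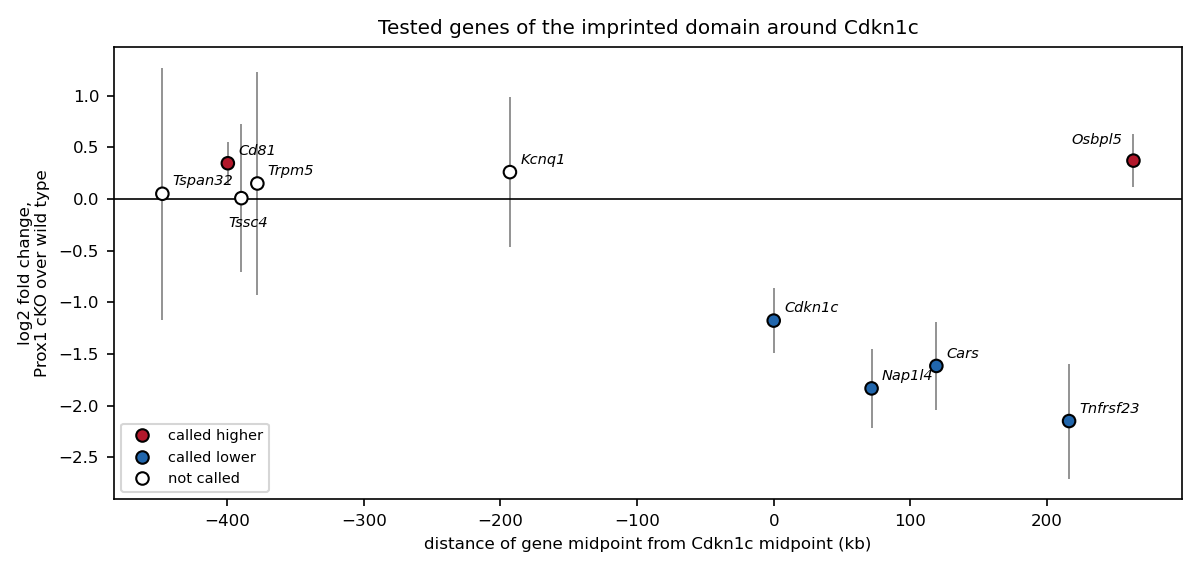
Log2 fold change, Prox1 cKO over wild type, of the tested genes around Cdkn1c against the distance of each gene's middle from that of Cdkn1c in kb, negative toward lower coordinates, with lines for 95% intervals. Filled points passed an adjusted p of 0.05; Cdkn1c, Nap1l4, Cars and Tnfrsf23 form the group below -1, and the other points lie near or above 0.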

How the data were processed

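The labels describe 6 libraries of polyadenylated RNA from whole lenses, 3 Prox1 cKO and 3 wild type, made with an unstranded kit (TruSeq RNA v2) and read as single ends of 51 bp. Per the file headers, every table holds raw counts, CPM and RPKM. The deposited CPM is the count scaled to the library total within 1e-06, with no TMM factor, and the RPKM made by the authors is that CPM divided by 1 length per feature. The submitters' processing notes list the build GRCm38 and the tool edgeR. Aligner, counter, annotation and the use made of edgeR were not given in the sources used here.

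Where count and CPM disagreed, in 26 features, the feature was left out (0.0424% to 0.0636% of a library's counts). Counts were fitted with edgeR 4.0.16 in R 4.3.3 (filterByExpr with a minimum count of 10, TMM, quasi-likelihood test, no covariate), with Benjamini-Hochberg adjustment over all 14271 features tested and a threshold of 0.05. The SE is the log2 fold change divided by the square root of F. The procedure was run on simulated counts with a small part of the genes changed, rises and falls balanced, and the same dispersion for all genes. That simulation held no loss of crystallins, so it cannot test the scaling. Within groups, Pearson's r of log2 CPM was 0.980 to 0.993. A count of 3 equals 0.106 to 0.33 CPM, depending on the library, and intervals cover the spread between these pools, which the labels call biological replicates. Nothing in the labels says whether pools shared litters, so p-values measure only the spread between pools.

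The genes and lists were chosen with earlier results of these data known. All 10 genes are described, and from each pathway list up to 6 called genes of largest log2 fold change, plus Cdk4, Cdk6, Rb1 and E2f1. In addition, Trp53, the uncalled Cdk1, Kcnq1 and the domain genes too low to test, Oraov1 and Bysl were named after their values were seen. Alternatives were DESeq2 1.42.0, limma 3.58.1 (voom), other scalings, other filters, the replicate number as a block, and each library left out. Coordinates and exon overlaps are from GENCODE mouse release 21 (GRCm38), and promoter windows from RefSeq (GRCm38.p6). Cdkn1c, Ccnd1 and Ccnd2 have no window here.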

Additional observations from a re-analysis of the deposited data

How the results depend on the processing

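Cdkn1c was called lower under every alternative run, with log2 fold changes from -1.34 to -0.81, the latter with library totals alone. Of the 10 genes, 3 were called with DESeq2 (Cdkn1c, Ccnd2 and Ccnd3), beside 4830 of all genes (33.8%). With 1 library left out, 1 to 4 of the 10 were called, with 4 without wild type replicate 1 (all genes 5317, 36.4%) and 3 without wild type replicate 3 (all genes 2475, 17%), and the lowest count of all genes was 2267 (15.5%) without wild type replicate 2. The split of calls was 2604 higher and 2140 lower with upper quartile scaling, 2735 and 1728 with library totals without crystallins, and 5423 and 945 with library totals alone. Called genes with 1 library left out ranged from 2 to 7 for the G1 kinases, 2 to 6 for the E2F factors, 0 to 5 for the S, G2 and M cyclins, 2 to 5 for turnover, 2 to 7 for p53, 5 to 13 for the regulators and 3 to 4 for the domain. With library totals alone, 44.6% of all genes were called, and 8 E2F and 7 turnover genes were. Log2 fold changes turned positive for Cdkn1b (0.084), Cdkn2d (0.043) and Ccnd3 (0.085). Those of Cdkn2c and Ccnd1 grew to 0.51 and 0.47, with adjusted p of 0.0542 and 0.0516. The calls of Rb1, Mnat1, E2f5, Sesn1, Mxd1 and Myc were lost (adjusted p 0.0797 to 0.483). With 1 library left out, log2 fold changes crossed 0 for Ccnd1 (-0.011 without Prox1 cKO replicate 1, up to 0.263), Cdkn2a (-1.21 to 0.203, the highest without wild type replicate 1) and Cdkn2c (-0.051 without wild type replicate 1, up to 0.255). The cause was not tested. On the deposited CPM, the log2 ratio of group means was -0.64 for the summed inhibitors and 0.16 for the summed D cyclins, against -1.01 and -0.18 with TMM.

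Replicate numbers are shared by the groups, but same-numbered libraries deviated together with correlations of -0.04, 0.28 and 0.09, so the numbers were not taken as pairs, and not every library correlated best with its own number. With the replicate block 4176 genes were called, and 1 of the 10 described here, Cdkn1c (log2 fold change -1.17, adjusted p 0.00284). Counts of Cdkn2a and Cdkn2b were as low as 8 and 13. They also differed widely between wild type libraries of similar depth, with 70, 19 and 10 counts for Cdkn2a and 130, 70 and 13 for Cdkn2b.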
